A study of Mus musculus with 8 samples.

Results

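Platelets carry a small set of membrane receptors that catch the damaged vessel wall and switch the cell on, and the transcripts of 10 of these receptors were followed in mouse blood. The members are Gp1ba, Gp1bb, Gp9, Gp5, Itga2b, Itgb3, Gp6, Clec1b, P2ry12 and F2rl2, each taken as the row of the count table whose gene symbol equals its name, 10 of the 21878 genes in the table. RNA of peripheral blood came from female wild-type C57BL/6 mice aged 6-8 weeks. The stress group (n = 4) was restrained for 6 hours in a ventilated tube and the control group (n = 4) was not restrained, and food and water were withheld from both. The controls were littermates of the restrained mice. The comparison asks how acute restraint changed the transcripts of the circulating blood. Each library is a mixture of all blood cells, and fewer platelets and less RNA per platelet cannot be told apart in it. The labels give the samples as separate replicates without naming an animal, so p-values refer to samples and not to animals. The gene test shares information on spread across genes, so its p-values do not rest on a member's own samples alone.

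Platelets are shed by megakaryocytes of the marrow, have no nucleus and keep a store of megakaryocyte RNA. The GPIb-IX-V complex slows a platelet on von Willebrand factor, GPVI and CLEC-2 then signal through ITAM and hemITAM motifs and the kinase Syk, and ADP and thrombin receptors signal through G proteins. These signals converge on the integrin alphaIIb-beta3, which binds fibrinogen and joins platelets to each other.

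On the TMM scale, which sets the typical gene near 0, all 10 receptor transcripts rose in the stress group, by log2 fold changes of 0.79 (Gp6) to 1.21 (Gp1bb). The direction did not hold on every scale. When the libraries were scaled by their total counts, all 10 lay above 0 but none passed the test. When they were scaled by other platelet transcripts, 6 lay above 0 and 4 below, again with none past the test. Their median change was close to that of other platelet transcripts and lay about 1 log2 unit above that of the typical blood gene under each of the 3 scalings.

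The libraries differed in ways that bear on each of these values. They held 31471145 to 39014775 counts in the control group and 25978683 to 29655725 in the stress group, of which haemoglobin genes took 51.9-63.8% and 61.2-75.5%. Outside haemoglobin, 11412556 to 18774818 counts remained in a control sample and 6355715 to 11009882 in a stress sample, and the TMM factors were 1.01-1.77 and 0.507-1.10. The median log2 fold change of the 11718 tested genes was -0.02 with TMM, -0.82 with total counts and -1.03 with the platelet reference, the summed counts of 14 platelet transcripts that are no members. Member counts in a sample lay between 519 (Gp1ba and F2rl2 in stress replicate 3) and 27906 (Itga2b in stress replicate 4).

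GPIb-IX-V is built from the von Willebrand factor binding chain GPIbalpha (Gp1ba), the disulfide-linked chain GPIbbeta (Gp1bb), GPIX (Gp9) and GPV (Gp5). In GRCm38, Gp1ba lies on chr11:70639122-70642036 (plus strand), Gp1bb on chr16:18620317-18622403 (minus), Gp9 on chr6:87778072-87779768 (plus) and Gp5 on chr16:30307685-30310779 (minus). Of the 2087 exon bases of Gp1bb, 1938 are shared with exons of Sept5 or Gm49601 on the same strand, so reads there could be assigned to either gene. Sept5 itself had 10-38 counts per sample where Gp1bb had 1680-2863.

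The bases just before the start of a receptor gene are where megakaryocyte factors such as GATA1 and the ETS protein FLI1 are known to act in this gene class, so the 250 bases upstream were searched for their short words on both strands. RefSeq promoters of GRCm38.p6 matched 9 of the 10 members, all but Itgb3. GATA words (AGATAA or AGATAG or TGATAA or TGATAG) stood before 6 of the 9, against 26.5% of 32851 promoters, and ETS words (AGGAAG or CGGAAG) before 7 of the 9, against 39.2%. Both kinds stood before 4 of the 9 (Gp1ba, Gp1bb, Gp5 and F2rl2), against 9.21%. The 150 bases upstream of 4 members, which hold a word and no annotated exon, are printed 5′ to 3′ in the direction of the gene, with the words of either strand in capitals. They are chr11:70638972-70639121 (plus strand), chr6:87777920-87778069 (plus), chr16:30310782-30310931 (minus) and chr7:4397745-4397894 (minus).
Gp1ba: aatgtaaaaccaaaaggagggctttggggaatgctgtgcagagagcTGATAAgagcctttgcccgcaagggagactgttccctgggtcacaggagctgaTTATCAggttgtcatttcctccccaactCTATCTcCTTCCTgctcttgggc
Gp9: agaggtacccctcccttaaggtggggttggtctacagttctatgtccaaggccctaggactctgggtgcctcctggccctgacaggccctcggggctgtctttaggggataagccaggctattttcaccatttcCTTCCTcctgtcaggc
Gp5: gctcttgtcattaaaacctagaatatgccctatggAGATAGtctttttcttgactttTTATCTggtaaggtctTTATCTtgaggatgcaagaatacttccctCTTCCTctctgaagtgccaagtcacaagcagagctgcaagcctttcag
Gp6: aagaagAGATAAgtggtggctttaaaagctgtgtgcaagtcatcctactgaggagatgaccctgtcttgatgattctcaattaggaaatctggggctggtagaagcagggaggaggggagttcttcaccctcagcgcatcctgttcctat
Gp1ba held GATA words from -104 to -99, from -51 to -46 and from -23 to -18, counted back from its start, and an ETS word from -16 to -11. Gp9 held an ETS word at the same place, from -16 to -11, and no GATA word. Gp5 held 3 GATA words between -115 and -72 and an ETS word from -48 to -43. A match is a string of letters and was not tested as a binding site.

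Gp1ba had TMM-scaled CPM (counts set to a common library size) of 24.7, 20.9, 19.3 and 27.0 in control replicates 1 to 4 and of 47.8, 39.0, 39.4 and 45.1 in stress replicates 1 to 4. The lowest stress sample was above the highest control sample. The mean of Gp1ba was 23.0 ± 3.51 CPM without and 42.8 ± 4.33 CPM with restraint (SD over 4 samples). Its log2 fold change was 0.90 (SE 0.13, 95% interval 0.63 to 1.17, quasi-likelihood test of edgeR with p-values adjusted by Benjamini-Hochberg, adjusted p = 0.00107). Gp1bb, the member with the highest log2 fold change, had 52.6, 38.8, 34.6 and 62.7 CPM in the control samples and 99.0, 118, 128 and 91.6 CPM in the stress samples. Again no sample of one group reached the other. Gp1bb rose by a log2 fold change of 1.21 (SE 0.18, 95% interval 0.82 to 1.60, edgeR, adjusted p = 0.00152).

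Gp9, the small leucine-rich subunit that holds the complex together, had 130.2, 103, 92.2 and 150.5 CPM in the control samples and 189, 232, 286 and 188 CPM in the stress samples. Its groups did not overlap on this scale, and stress replicate 3, with a TMM factor of 0.507, was the highest of the 8 samples. With total counts that sample was the lowest of the 8 for Gp9, at 145 CPM. Gp9 rose by a log2 fold change of 0.91 (SE 0.18, edgeR, adjusted p = 0.00646). Gp5, the thrombin-cleaved subunit, had 60.7, 46.3, 46.8 and 71.4 CPM in the control samples and 114, 118, 120.1 and 99.4 CPM in the stress samples. On the TMM scale the stress samples lay close together and all above the control samples. Gp5 rose by a log2 fold change of 1.00 (SE 0.15, edgeR, adjusted p = 0.00126).

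**Figure D1:**
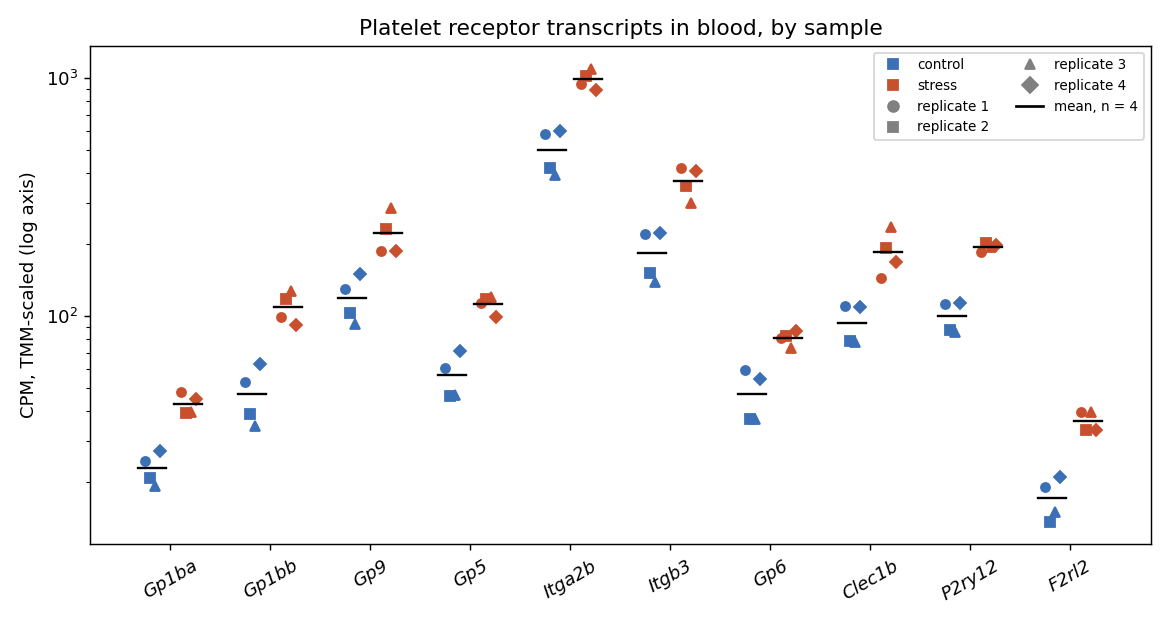
TMM-scaled CPM (log axis) of the 10 receptor transcripts, with control samples in blue, stress samples in red, a symbol for each replicate number and a bar at the mean of 4 samples. For each transcript all 4 stress samples sit above all 4 control samples, as in Itga2b, where control samples reach 598 CPM and stress samples start at 893 CPM.

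The integrin chains alphaIIb (Itga2b, chr11:102453297-102470122, minus strand) and beta3 (Itgb3, chr11:104608000-104670476, plus strand) form the fibrinogen receptor, and alphaIIb is the classical marker of the megakaryocyte line. Itga2b had 581, 421, 390.2 and 598 CPM in the control samples and 947, 1026, 1097 and 893 CPM in the stress samples. The control samples were split between a lower pair (replicates 2 and 3) and a higher pair (1 and 4), and the stress samples lay above both. The lower pair had the highest TMM factors, 1.47 and 1.77. With total counts the pairs were not seen, at 680, 619, 692 and 601 CPM in control replicates 1 to 4. Itga2b rose by a log2 fold change of 0.99 (SE 0.20, 95% interval 0.56 to 1.43, edgeR, adjusted p = 0.00638).

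Itgb3 had 222, 152, 139 and 224 CPM in the control samples and 421, 353, 298 and 407 CPM in the stress samples. With TMM, stress replicate 3, the highest of the stress samples for Itga2b, was the lowest of them for Itgb3. This contrast was particular to that scale. With total counts the same replicate was the lowest stress sample for Itga2b (556 CPM) as well as for Itgb3 (151 CPM). It was also the lowest stress sample for each chain when set against the platelet reference. Itgb3 rose by a log2 fold change of 1.00 (SE 0.19, 95% interval 0.59 to 1.42, edgeR, adjusted p = 0.00454). The counts of Itgb3 per count of Itga2b were 0.382, 0.362, 0.357 and 0.375 in the control samples and 0.444, 0.344, 0.272 and 0.456 in the stress samples. The 2 chains thus kept a narrow ratio in the control group (0.369 ± 0.0115) and a wide one in the stress group (0.379 ± 0.0873), with no shift of the mean (log2 difference 0.01, two-sided exact permutation test, p = 1.0).

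Gp6 (chr7:4363965-4397744, minus strand) encodes the collagen receptor GPVI, and Clec1b (chr6:129397297-129409335, plus strand) encodes CLEC-2, the receptor for podoplanin. Gp6 had 59.6, 36.9, 36.8 and 54.5 CPM in the control samples and 80.6, 82.4, 73.8 and 86.9 CPM in the stress samples. It had the lowest log2 fold change of the 10 members, 0.79 (SE 0.16, 95% interval 0.45 to 1.13, edgeR, adjusted p = 0.00589), and its groups did not overlap. Clec1b had 109.9, 78.8, 77.9 and 109 CPM in the control samples and 145, 193, 238 and 169 CPM in the stress samples. Its stress samples spread more widely than its control samples and lay above them. Clec1b rose by a log2 fold change of 0.99 (SE 0.18, 95% interval 0.61 to 1.37, edgeR, adjusted p = 0.00326), and 184 of its exon bases are shared with Clec9a on the same strand.

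P2ry12 (chr3:59216272-59262871, minus strand) encodes the Gi-coupled ADP receptor that antiplatelet drugs block, and F2rl2 (chr13:95696853-95702739, plus strand) encodes PAR3, which presents thrombin to PAR4 in mouse platelets. P2ry12 had 113, 87.1, 86.2 and 113 CPM in the control samples and 187, 202, 194 and 199 CPM in the stress samples. Its 4 stress samples lay closest together of any member's on this scale, at 195 ± 6.69 CPM (SD, n = 4) with a coefficient of variation of 3.42%. P2ry12 rose by a log2 fold change of 0.97 (SE 0.13, 95% interval 0.68 to 1.26, edgeR, adjusted p = 0.00107). F2rl2 had 19.2, 13.7, 15.0 and 21.1 CPM in the control samples and 39.4, 33.3, 39.4 and 33.2 CPM in the stress samples. Its groups were well apart, and it had the smallest adjusted p of the members (log2 fold change 1.08, SE 0.14, 95% interval 0.77 to 1.38, edgeR, adjusted p = 0.00093).

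All 10 members thus passed an adjusted p of 0.01 upward, as did 4.60% of the 11718 tested genes, while 0.324% of them passed it downward. With the further threshold of a log2 fold change above 1, which the study used, 4 members were called (Gp1bb, Gp5, Itgb3 and F2rl2), against 1.69% of all tested genes. The other 6 had log2 fold changes of 0.79 to 0.99, and the intervals of all 10 members overlapped each other, so a threshold of 1 falls among members that these data do not tell apart. All 10 members had every stress sample above every control sample, against 11.1% of all tested genes. When 1 sample was left out in turn, 5 to 10 members passed the adjusted p, with 5 when control replicate 2, control replicate 3 or stress replicate 2 was left out, and 1 (without control replicate 2) to 9 (without control replicate 4) were called.

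Scaled by total counts, the receptors looked different. Gp1bb had 61.5, 57.2, 61.3 and 63.1 CPM in the control samples and 79.3, 85.8, 64.7 and 101 CPM in the stress samples, and it was the single member whose groups stayed apart, against 0.247% of all tested genes. Itgb3 had 259, 224, 247 and 225 CPM in the control samples and 337, 257, 151 and 448 CPM in the stress samples. Stress replicate 3 fell below every control sample for Itgb3, and stress replicate 4 was far above. The log2 fold changes ran from 0.08 (Gp6) to 0.44 (Gp1bb, 95% interval -0.20 to 1.08), with 0 of 10 past edgeR's adjusted p of 0.01, 0 at an unadjusted p under 0.05, and adjusted p from 0.230 to 0.851. Of all tested genes, 0.119% passed upward and 6.29% downward on this scale. The members' median was 0.23 beside -0.82 for all tested genes, a gap of 1.05 that is close to the gap of 1.01 with TMM and of 1.04 with the platelet reference, since a scaling moves all genes by about the same amount.

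**Figure D2:**
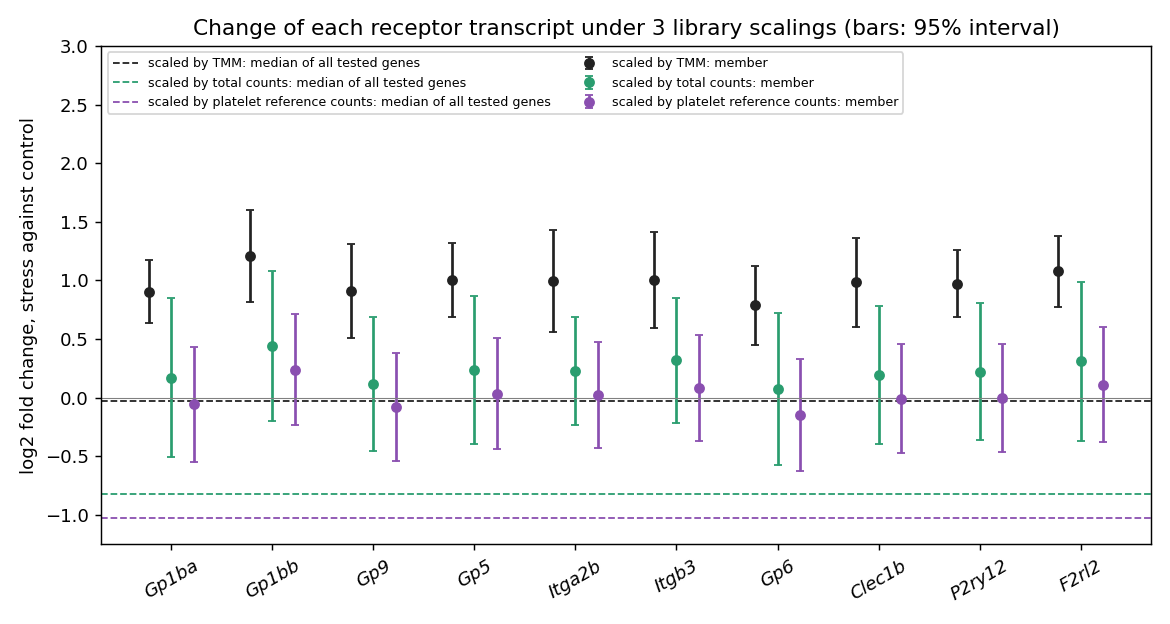
Log2 fold change of each member, stress against control (points, with 95% intervals as bars), with the libraries scaled by TMM, by total counts or by the platelet reference counts, and dashed lines at the median of all tested genes on each scale. Every interval lies above 0 with TMM and every interval covers 0 on both other scales, while the distance to the median of all genes stays near 1 log2 unit.

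The platelet reference asks whether a receptor moved apart from the rest of the platelet RNA. Among its 14 genes are the chemokine genes Pf4 and Ppbp, the tubulin gene Tubb1, Treml1, Alox12, Vwf and Selp. The reference is a plain sum, so its most abundant genes weigh most. In control replicate 1, Ctla2a, Nrgn and Ppbp gave 41690, 37787 and 21563 of its 161514 counts. All 14 genes were detected and tested. They made up 0.432-0.533% of the total counts of control samples and 0.446-0.689% of those of stress samples (exact permutation test, two-sided, p = 0.257). Outside haemoglobin their share was 1.01-1.32% and 1.51-1.84%, without overlap (exact permutation test, two-sided, p = 0.0286, the smallest it can give). With TMM, 12 of the 14 rose and none fell, against 4.60% of all tested genes that rose. The median log2 fold change of the 14 was 0.98, beside 0.99 for the members. The P-selectin gene Selp (0.90), the granule-secretion GTPase gene Rab27b (1.02) and the caveolar gene Cavin2 (0.88) had the smallest p, and Ctla2a, the most abundant of them, had a log2 fold change of 1.03 (edgeR, adjusted p = 0.0213).

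Against that reference, 0 of the 10 receptors passed edgeR's adjusted p of 0.01 and 0 an unadjusted p under 0.05, while 68.5% of all tested genes passed downward and 0.179% upward. Their log2 fold changes were -0.06 for Gp1ba, 0.24 for Gp1bb, -0.08 for Gp9, 0.03 for Gp5, 0.03 for Itga2b, 0.08 for Itgb3, -0.15 for Gp6, -0.01 for Clec1b, 0.00 for P2ry12 and 0.11 for F2rl2. Gp1bb was again the highest, with a 95% interval from -0.24 to 0.72, and Gp6 the lowest, from -0.63 to 0.33. These intervals are wide, so equal change was not shown. The members had similar SE on this scale, 0.231 (Itga2b) to 0.251 (F2rl2). Their coefficients of variation in the stress group ran from 3.94% (Gp9) to 29.4% (Itgb3). The widths thus come from a spread shared over all genes, here and with total counts, and a small change of a steady member could be missed. No member had groups that stayed apart on this scale, against 0.179% of all tested genes. Together the 10 members took 31.3-34.0 counts per 100 platelet reference counts in the control samples and 28.6-36.0 in the stress samples.

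Relative to the platelet reference, the receptors lay closer to their control means in the control samples than in the stress samples. When each member was set against the platelet reference and against its own control mean, the highest and the lowest member of a control sample lay 0.19-0.26 log2 units apart. In stress replicates 1, 2, 3 and 4 they lay 0.58, 0.59, 0.79 and 0.49 apart. In stress replicate 3, Gp6 (-0.61), Itgb3 (-0.57) and Gp1ba (-0.50) were far below their control means while Gp1bb (0.18) and Clec1b (0.07) were above. In stress replicate 1 the order was another, with Itgb3 at 0.41, F2rl2 at 0.40 and Clec1b at -0.17. Stress replicate 3 had the fewest counts outside haemoglobin (6355715) and the most haemoglobin (75.5%) of the 8 samples, and stress replicates 1, 2 and 4 had 9377937, 8782029 and 11009882 such counts. The part of depth and haemoglobin in this spread was not tested. Reference genes also moved apart, as in Tubb1 and Gng11, named after their values were seen. Tubb1 had more counts than Gng11 in every control sample and in stress replicates 1 and 4. It had fewer in stress replicate 2 (9735 against 10659) and stress replicate 3 (5463 against 8710). The spread is thus not shown to be particular to the receptors. Since the members were set against control means, control samples lie near 0 by construction. The spread of a stress sample also holds any shift of a member between the groups. The coefficient of variation over the 4 samples of a group carries no such advantage. On the platelet reference scale it was higher in the stress group for 8 of 10 members (medians 6.37% and 13.2%), on the total-count scale for 10 of 10 (9.42% and 24.7%), and on the TMM scale for 1 of 10 (21.5% and 9.96%), so the direction of this difference depends on the scale.

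**Figure D3:**
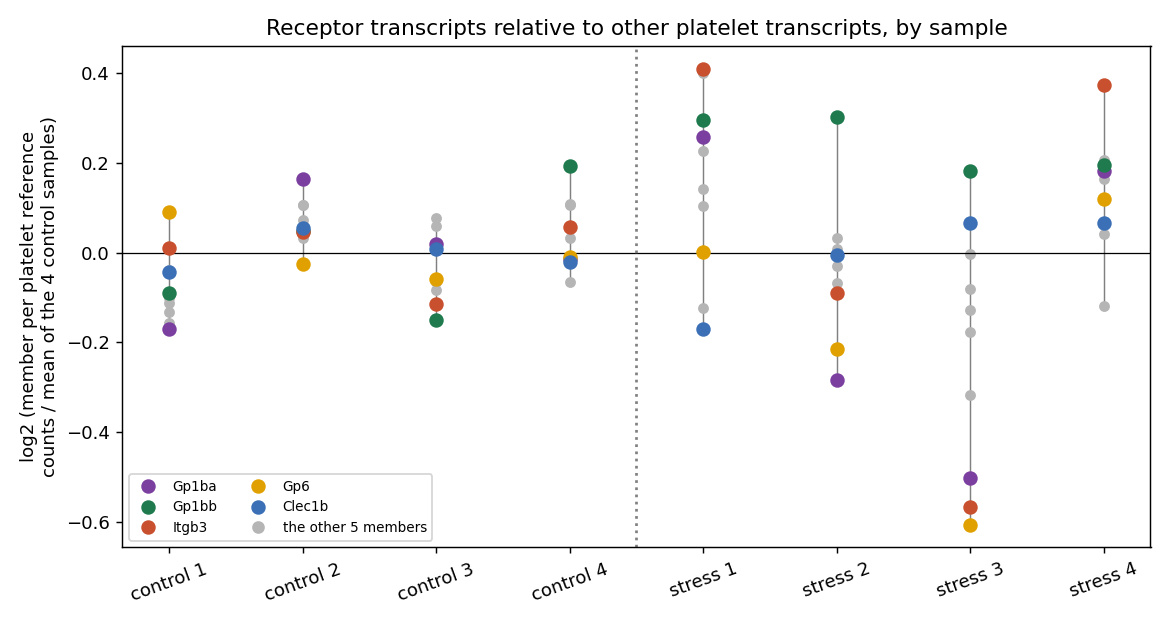
Each member's counts per platelet reference count in each of the 8 samples, as log2 of the ratio to its mean over the 4 control samples, with 5 members in colour, the other 5 in grey and a line from the lowest to the highest member of each sample. The lines are 0.19-0.26 long in the control samples and 0.49-0.79 long in the stress samples, and Gp6, Itgb3 and Gp1ba lie lowest in stress replicate 3.

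Subunit and partner ratios, which need no library scaling, were set beside these values. The count ratio of Gp1bb to Gp1ba was 2.13, 1.86, 1.79 and 2.32 in the control samples and 2.07, 3.02, 3.24 and 2.03 in the stress samples. Stress replicates 2 and 3 stood above the control range and stress replicates 1 and 4 within it, giving 2.02 ± 0.247 against 2.59 ± 0.628 (SD, n = 4, log2 difference 0.33, two-sided exact permutation test, p = 0.2). The ratio of Gp9 to Gp1ba was 5.14 ± 0.357 and 5.33 ± 1.57 (exact permutation p = 1.0), and that of Gp5 to Gp1ba 2.44 ± 0.176 and 2.66 ± 0.436 (exact permutation p = 0.4). For the ADP receptors, the ratio of P2ry12 to P2ry1 was 16.4 ± 1.72 and 14.4 ± 2.97 (exact permutation p = 0.257). For the thrombin receptors, the ratio of F2rl2 to F2rl3, the PAR4 gene, was 11.9 ± 2.71 and 15.0 ± 6.42 (exact permutation p = 0.514), with as few as 30 counts of F2rl3 in a sample. All 6 ratios overlapped between the groups, their p-values adjusted over the 6 were 0.771 to 1.0, and 0.0286 is the smallest p that 4 samples against 4 can give.

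Levels of different genes were compared per kilobase of exon on the TMM scale. In the control group Gp9 was the highest at 135 ± 29.95 CPM per kb, followed by Itga2b at 91.2 ± 19.7, P2ry12 at 39.2 ± 5.94, Itgb3 at 31.2 ± 7.61, Gp5 at 25.6 ± 5.50, Gp1bb at 22.6 ± 6.18, Clec1b at 18.4 ± 3.54, Gp1ba at 8.45 ± 1.29, Gp6 at 7.96 ± 2.01 and F2rl2 at 6.90 ± 1.40 (SD, n = 4). Of the neighbours in this order, Itga2b and P2ry12 had ranges that did not overlap, as did Clec1b and Gp1ba, and the other neighbours overlapped. In the stress group Gp1bb (52.2 ± 7.94) stood just above Gp5 (51.4 ± 4.25) and F2rl2 (14.5 ± 1.42) above Gp6 (13.7 ± 0.921), and the other places were the same. With the longest transcript in place of all exons, Itga2b (145 ± 31.2) stood above Gp9. The place of Gp1bb depends on how reads were assigned in the 1938 of its 2087 exon bases that are shared with Sept5 or Gm49601.

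The genes the receptors act with moved less evenly. Of all tested genes, 4.60% passed upward with TMM, the share to set beside the list counts that follow. Of 12 genes of ligands and adhesive proteins, 6 had enough counts to be tested and 3 rose, with a median log2 fold change of 1.18 over the 6. These were Fn1, encoding fibronectin (2.21, edgeR, adjusted p = 0.00249), Thbs1, encoding thrombospondin-1 (1.37, adjusted p = 0.00249), and Vwf, encoding von Willebrand factor, the ligand of GPIbalpha (0.99, adjusted p = 0.00872). Fn1 is also expressed by monocytes and stood in the list of classical monocyte markers. Fga, Fgb and Fgg, the fibrinogen genes of the liver, had 0 counts in all 8 samples, where a count of 0 allows up to 3 counts, or 0.0769-0.115 CPM, for counting error only.

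Among 31 other platelet receptor genes, 25 were tested, 13 rose and none fell, against 4.60% of all tested genes that rose. Their median log2 fold change was 0.83. The smallest p belonged to Selp (0.90, SE 0.13), to P2rx1, encoding the ATP-gated channel P2X1 (0.97, SE 0.14), and to Esam, encoding an endothelial-type adhesion molecule also found on platelets (1.10, SE 0.16), with edgeR adjusted p of 0.00107, 0.00107 and 0.00109. Cd9, a tetraspanin and the most abundant of this list, had a log2 fold change of 0.92 (edgeR, adjusted p = 0.0145).

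The signalling genes downstream, which leukocytes also use, lay nearer to the typical gene. Beside the 4.60% of all tested genes that rose, counts as small as 1 of 12 or 2 of 16 were not read as a result about a list. Of 16 genes of ITAM signalling 2 rose, Fcer1g (0.83), which encodes the signalling chain paired with GPVI, and Ubash3b (0.67), a phosphatase gene that restrains Syk, while Syk itself was at 0.02 (edgeR, adjusted p = 0.923). The median of this list was 0.21. Of 13 G protein signalling genes 5 rose, led by Gnaq (0.92), the Gq subunit gene, Gnaz (0.89), the Gz subunit gene, and Rgs10 (0.94), a regulator of G protein signalling. The other 2, named after their values were seen, were Pik3cb (0.79), a phosphoinositide kinase gene, and Rgs18 (0.86), while the most abundant, Arhgef1, was at -0.39 (edgeR, adjusted p = 0.0649). The median was 0.18. Of 12 integrin activation genes 1 rose, Ilk (0.73), encoding integrin-linked kinase, while Flna, encoding filamin A, was at 0.26 (edgeR, adjusted p = 0.374) and the median was 0.39.

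Of 8 tested genes of inhibitory receptors and phosphatases 2 rose, Mpig6b (0.92), the ITIM receptor gene of megakaryocytes and platelets, and Ptpn11 (0.64), encoding SHP2, while Ptpn6, encoding SHP1, was at -0.04 (edgeR, adjusted p = 0.864). Their median was 0.30. Of 13 megakaryocyte transcription factor genes 5 rose, with Tal1 (0.95), Nfe2 (0.99) and Gata1 (0.89) at the smallest p. The other 2, again named after their values were seen, were Gfi1b (1.10) and Zfpm1 (0.58), while the cofactor gene Ldb1 was at -0.10 (edgeR, adjusted p = 0.568). Their median was 0.58. Tal1, Nfe2 and Gata1 are also genes of the red cell line. No gene of these 5 lists passed the test downward with TMM. Of all tested genes, 4.60% passed upward and 0.324% downward on that scale.

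With total counts, 1 ligand gene rose (Fn1, 1.57) and no gene of the other 6 pathway lists did, against 0.119% of all tested genes. On that scale 1 G protein gene fell (Arhgef1, -1.17), against 6.29% of all tested genes. The medians were 0.51 for ligands, 0.07 for other receptors, -0.57 for ITAM signalling and -0.61 for G protein signalling. They were -0.36 for integrin activation, -0.48 for inhibitory genes and -0.20 for transcription factors. Against the platelet reference, 10 of 16 ITAM signalling genes, 7 of 13 G protein genes, 4 of 12 integrin activation genes, 4 of 8 inhibitory genes, 6 of 13 transcription factors and 5 of 25 other receptors passed the test downward, each a smaller share than the 68.5% of all tested genes. The other receptors in this count, named after their values were seen, were F2r (-0.79), Tbxa2r (-1.11), Itgav (-1.15), Pear1 (-1.05) and Cd40lg (-1.39), the integrin activation genes were Rasa3 (-0.77), Apbb1ip (-0.99), Cib1 (-0.75) and Flna (-0.70), and the inhibitory genes were Ceacam1 (-0.97), Adora2a (-1.30), Ptpn6 (-1.05) and Inpp5d (-0.86). The members had a median of 0.01 on that scale, where the median of all tested genes was -1.03.

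**Figure D4:**
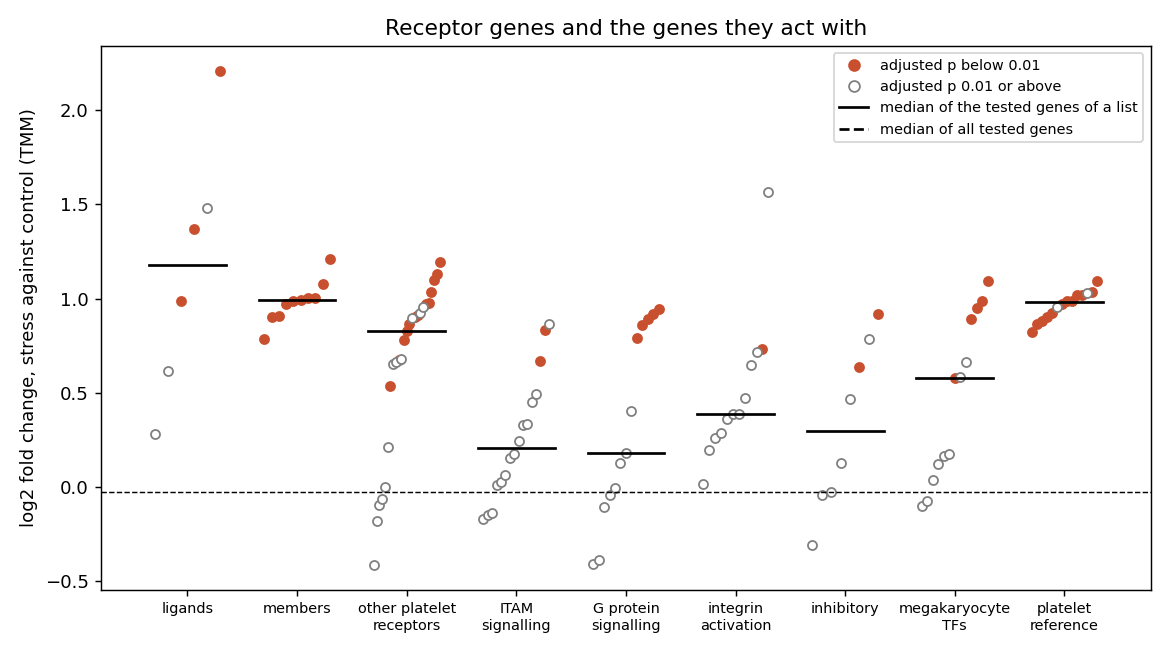
Log2 fold change (TMM scale) of each tested gene in the receptor set, 7 lists of pathway genes and the platelet reference, filled where edgeR's adjusted p was below 0.01, with a bar at the median of each list and a dashed line at the median of all tested genes. The members lie between 0.79 and 1.21 and the platelet reference around 0.98, while the ITAM and G protein signalling lists have medians of 0.21 and 0.18.

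Markers of other blood cells moved at the same time on the TMM scale, and their part in the receptor values was not tested. By flow cytometry the study reported fewer monocytes, T, B and NK cells and more neutrophils in stressed blood, as cell numbers rather than RNA. Of 9 tested neutrophil markers 6 rose (median 1.48), their summed level being 160.2-308 CPM in the control group and 486-729 CPM in the stress group. Of 6 classical monocyte markers 5 rose (Chil3, F13a1, Lyz2, Fn1 and Ccr2, median 1.51, summed level 306-416 and 672-1141 CPM). With TMM 4.60% of all tested genes passed upward. With total counts 0.119% of all tested genes did, beside 2 of the 6 monocyte and 1 of the 9 neutrophil markers. No B cell (median -0.42), T cell (0.04) or NK cell (-0.27) marker passed edgeR's adjusted p of 0.01 with TMM. With total counts, 6 of 6 B cell, 0 of 6 T cell and 1 of 4 NK cell markers passed downward, against 6.29% of all tested genes. Against the platelet reference every marker of these lists did, but so did 68.5% of all tested genes. The 6 markers of immature red cells had a median of 1.00, close to that of the receptors, but their groups overlapped and 0 of 6 passed. The endothelial defining marker Cdh5 averaged 0.421 CPM in control samples and 0.587 CPM in stress samples. Kdr, the most abundant marker of that list, averaged 1.39 and 2.32 CPM (log2 fold change 0.75, edgeR, adjusted p = 0.0465) with its groups apart, and of the 5 tissue macrophage markers 4 were too low to be tested.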

How the data were processed

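RNA was extracted from 4 control and 4 stress samples of mouse peripheral blood and sequenced on an Illumina instrument, 1 library per sample. The deposited table holds whole-number read counts for each gene symbol, which the authors did not normalize. The submitters' processing notes name HISAT2, featureCounts and the build mm10; their versions, the annotation and the strand setting are not given in the sources used here. Coordinates and exon lengths came from GENCODE M21 (GRCm38).

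A gene was tested if 4 or more samples had 10 or more counts, which held for 11718 of 21878 genes (5948 had none in any library). The test was edgeR 4.0.16's robust quasi-likelihood fit in R 4.3.3 with TMM factors, and p-values were adjusted by Benjamini-Hochberg over all tested genes. Calls followed the study, which used DESeq2: an adjusted p below 0.01 and a log2 fold change above 1. CPM values were computed with the TMM-scaled library size, or with total or platelet reference counts. TMM takes most genes as unchanged. The edgeR step was tested on simulated counts with known changes. Ratios and library shares were compared with two-sided exact permutation tests over all 70 assignments of the samples.

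The members and lists were chosen with earlier results of these data known. Named genes were the members, the genes of each list past the adjusted p (at most 3 in each direction by smallest p), its most abundant gene, and the 5 genes most like the members. One gene of the lists, which counts in their sums, is not reported here by itself. Cavin2 and Mpig6b are listed in the table under older symbols, Sdpr and G6b. No pair of libraries within a group agreed within counting noise, so none was treated as a repeat deposit of another, and this does not show that they came from separate animals. Alternatives were other scalings and filters, DESeq2 1.42.0, limma-voom (limma 3.58.1), haemoglobin genes left out, an adjusted p below 0.05, fits without 1 sample each and a fit with the replicate number as a block.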

Additional observations from a re-analysis of the deposited data

How the results depend on the processing

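All 10 receptors stayed above 0 in 17 of 18 alternatives, the exception being the platelet reference scaling, where Gp1ba (-0.057), Gp9 (-0.081), Gp6 (-0.15) and Clec1b (-0.0078) were below 0. The number of receptors past an adjusted p of 0.01, 10 with TMM, was 0 with total counts and 0 with the platelet reference, where scaling alone was changed, and 10 with RLE size factors, upper-quartile factors, DESeq2, limma-voom, both other filters and without haemoglobin genes. The number called with a log2 fold change above 1, which was 4, became 0 with total counts, 0 with the platelet reference, 2 with upper-quartile factors and 2 with at least 10 counts in all 8 samples. Leaving out 1 sample in turn gave 5 to 10 receptors past the adjusted p and 1 to 9 called. The number past the adjusted p was 5 when control replicate 2, control replicate 3 or stress replicate 2 was left out and 6 without stress replicate 1. The number called fell to 1 when control replicate 2 was left out, to 2 when it was control replicate 3, and grew to 9 when it was control replicate 4. The cause of these differences beyond the smaller number of samples was not tested. Gp1ba, Gp1bb, Gp5, P2ry12 and F2rl2 passed in 8 of 8 such fits, Clec1b in 5, Gp9, Itga2b and Itgb3 in 3 each and Gp6 in 2.

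The labels tie no replicate number to a litter or day, and which of the littermates were sampled under which number is not given in the sources used here. Same-numbered samples had deviations from their group means that correlated at 0.087, 0.051, -0.088 and -0.266, so the numbers were not taken as pairs. With the replicate number as a block, 7 receptors passed the adjusted p and 4 were called, the 3 not past it being Clec1b (0.0122), Gp9 (0.0230) and Itga2b (0.0292). The log2 difference of the Itgb3 to Itga2b ratio was 0.01 with all samples and from -0.090 to 0.159 when a sample was left out, and that of the Gp9 to Gp1ba ratio was 0.01 and from -0.155 to 0.138. No member had fewer than 519 counts in a sample and the 4 samples per group limit the precision.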

Other observations

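The receptor transcripts also varied together within the groups, some pairs far more closely than others. After the group means were taken off, the 5 genes outside the set whose TMM-scaled log2 CPM followed the members' mean profile most closely over the 8 samples were Gsn (r = 0.99), Zyx (0.98), Ndrg1 (0.98), Twf1 (0.98) and Mxi1 (0.98). Gsn, Zyx and Twf1 encode the actin-binding or adhesion proteins gelsolin, zyxin and twinfilin-1. Their log2 fold changes were 0.87 for Gsn, 0.84 for Zyx, 1.02 for Ndrg1, 0.55 for Twf1 and 0.84 for Mxi1, with edgeR adjusted p of 0.00256, 0.00830, 0.00107, 0.00597 and 0.0153. The samples share libraries and scaling factors, so these correlations are a description.

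Treated likewise, each member's median correlation with the other members was 0.60 (Itgb3) to 0.85 (Itga2b). These values share the TMM factors too.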
